A study of Mus musculus with 19 samples.

Results

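The nuclear receptor genes described here were chosen by symbol from a gene-level count table of mouse liver, taking the receptors of the family other than Rev-erb and Ror. They are 35 of the 55836 genes in the table. Of these, 32 held enough counts to be tested, among 13597 tested genes in all. The 3 that did not pass the filter on low counts were Vdr (the vitamin D receptor), Hnf4g and Nr4a3 (an orphan receptor of the NR4A group).

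Nuclear receptors are transcription factors that bind DNA through zinc fingers, and many are switched by a small lipid-soluble ligand that enters the cell, such as a fatty acid, an oxysterol, a bile acid, a thyroid or steroid hormone, or a foreign chemical. Several hepatocyte receptors act as heterodimers with a retinoid X receptor (RXR) on paired copies of a short half-site, and their activity is set by ligand and coregulator binding as well as by the amount of receptor. In liver they govern fatty acid oxidation, lipid synthesis, cholesterol and bile acid disposal, and drug metabolism.

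The study exposed male wild-type C57BL/6 mice, aged 8 weeks at the start, to polyethylene particles (PE) by daily oral gavage at 2 mg per mouse for 8 weeks, on either of a pair of diets. The control diet (CD) held 10 kcal% fat, and the diet that models steatohepatitis (MD) was richer in fat at 40 kcal%, with fructose at 20 kcal% and cholesterol at 2%. Vehicle (Veh) mice received the same gavage of 0.1% Tween 20 in water without particles, so all mice were gavaged. Bulk poly(A) RNA-seq of liver gave 19 libraries, each from 1 mouse. CD + Veh held 4 mice and each of the other 3 groups held 5. Values are CPM, counts scaled to a common library size by TMM.

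Depth ranged from 10398820 to 15456729 counts per library, with group medians of 15089731.5 (CD + Veh) and 14790140 (MD + Veh) for vehicle, and 10837229 (CD + PE) and 11615001 (MD + PE) for particles. Vehicle libraries carry the numbers 39 to 47 and PE libraries 48 to 57, so PE and library order cannot be told apart. A further division runs between library numbers 45 and 46, which puts MD + Veh replicates 4 and 5 on the side of the PE libraries. The pseudogene Rps6-ps4 held 1088 to 1690 counts in libraries 39 to 45 and 0 in libraries 46 to 57. Only MD + Veh had libraries on both sides, so a covariate for the division is estimated from its replicates 1 to 3 against 4 and 5. Replicates 1 to 3 also held more of the 6 skeletal muscle markers, which summed to 2720, 172 and 114 CPM against 13.2 and 1.85 CPM. Mitochondrial genes took 7.40% to 9.18% of counts in CD + Veh and 10.5% to 11.9% in CD + PE. On MD they took 9.11% to 10.95% with vehicle and 9.54% to 11.4% with PE. A clock score, the mean log2 CPM of Bmal1-arm genes minus that of Dbp and Per genes, ran from -3.88 to -2.56 in CD + Veh and -2.48 to 0.92 in CD + PE. On MD it ran from -1.66 to 0.20 with vehicle and -1.54 to 0.19 with PE. Hepatocyte markers such as Alb were high in all 19 libraries, and their summed level was 68376 to 84688 CPM in CD + Veh and 46656 to 60477 CPM in MD + Veh. Single libraries stood apart in markers of other cells. In MD + PE replicate 2 all 5 bile duct markers and 5 of 6 intestine markers reached their highest values, in MD + Veh replicate 1 all 6 skeletal muscle markers and in MD + PE replicate 4 all 5 lipid-associated macrophage markers did, and in CD + PE replicate 2 the 7 Kupffer cell markers summed to 705 CPM against 80.9 to 304 CPM in the other 18 libraries. MD + PE replicate 4 also held the highest value of 6 of 7 stellate cell markers, which summed to 538 CPM. Outside CD + PE replicate 2, the sum of the Kupffer cell markers moved with diet, at 96.1 to 176 CPM in CD + Veh and 206 to 303 CPM in MD + Veh without overlap. Taken singly, Cd5l, Csf1r, Adgre1 and Vsig4 did not overlap between these groups, while Clec4f, Timd4 and Marco did. The part of these markers in the diet results was not tested.

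Promoter sequence is shown for 3 members that tie the family to bile acids and foreign chemicals: Nr1h4, which encodes the bile acid receptor FXR and was lower on MD, Nr0b2, which encodes SHP, a corepressor-like receptor known to be induced by FXR, and Nr1i3, which encodes the drug receptor CAR. Each window ends at the start of the canonical transcript, spans 250 bases of GRCm39 and is printed without bases that lie in an annotated exon. Capitals mark the nuclear receptor half-site AGGTCA (or its reverse complement) or the E-box CACGTG, the site of CLOCK and BMAL1.
Nr1h4, minus strand, chr10:89342521-89342761: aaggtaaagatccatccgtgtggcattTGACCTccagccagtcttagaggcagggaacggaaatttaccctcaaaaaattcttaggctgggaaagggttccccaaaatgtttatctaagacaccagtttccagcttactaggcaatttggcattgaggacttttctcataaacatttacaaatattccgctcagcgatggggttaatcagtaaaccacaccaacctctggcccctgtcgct
Nr0b2, plus strand, chr4:133280428-133280677: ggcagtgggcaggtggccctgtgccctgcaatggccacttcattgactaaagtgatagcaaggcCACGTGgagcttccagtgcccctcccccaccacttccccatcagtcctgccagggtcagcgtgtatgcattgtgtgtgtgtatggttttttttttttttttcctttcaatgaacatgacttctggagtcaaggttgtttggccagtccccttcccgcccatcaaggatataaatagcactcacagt
Nr1i3, plus strand, chr1:171041289-171041505: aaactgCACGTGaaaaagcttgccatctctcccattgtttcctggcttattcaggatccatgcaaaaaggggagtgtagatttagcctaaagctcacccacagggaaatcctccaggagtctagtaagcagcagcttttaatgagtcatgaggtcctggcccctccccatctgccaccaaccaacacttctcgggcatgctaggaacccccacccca
On either strand, AGGTCA was found in the windows of 4 of 35 receptor genes (Nr1h4, Hnf4g, Nr2f6 and Nr6a1), against 13.1% of 21757 protein-coding promoters of the same length. CACGTG was found in 3 of 35 (Thrb, Nr1i3 and Nr0b2), against 6.26%. The ERR element TCAAGGTCA (which contains AGGTCA), the direct repeats of AGGTCA spaced by 1 or 4 bases, the D-box TTATGTAA and the cyclic AMP element TGACGTCA were found in 0 of the 35, against 0.432%, 0.0368%, 0%, 0.832% and 1.7% of all promoters. These matches describe letters in short windows and were not tied to any change in level.

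Levels were compared between receptors per kilobase of the canonical transcript. In CD + Veh the receptor genes with the highest level per kilobase were Hnf4a, which encodes the master regulator of hepatocyte identity, at 119.6 ± 7.88 CPM per kilobase (SD, n = 4), Nr1i3 at 92.4 ± 26.5 and Rxra, the main RXR of liver, at 76.96 ± 2.68. The SDs of Nr1i3 and Hnf4a, and of Nr1i3 and Rxra, reach into each other. Nr1h4 (45.9 ± 4.95 CPM per kilobase), Nr1h3 (41.8 ± 3.09), which encodes the oxysterol receptor LXRalpha, and Nr2f6 (37.3 ± 4.47) came next, again without separation beyond their SDs. The SDs of Nr2f6 and Nr0b2, the gene after it, also reach into each other. Nr0b2 stood at 28.1 ± 7.41, Nr1i2, which encodes the drug receptor PXR, at 21.3 ± 2.84 and Ppara, which encodes the fatty acid receptor that drives fat oxidation, at 20.8 ± 2.93 CPM per kilobase. At the bottom of the order were Nr4a3 at 0.0211 ± 0.0216 and Vdr at 0.0123 ± 0.0245 CPM per kilobase, which rest on 0 to 4 counts per library.

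The first comparison asks how diet alone changed the family. In MD + Veh against CD + Veh, 7 of 32 tested receptors were called, which required an edgeR quasi-likelihood adjusted p under 0.05 and a log2 fold change of 0.38 or more in either direction, against 10.4% of all genes tested. Pparg, Nr4a2 and Nr6a1 rose (3 of 32, against 4.74% of all genes), and Nr1h4, Nr2c1, Esrra and Nr3c2 fell (4 of 32, against 5.63%). The median log2 fold change was -0.05 over the 32 receptors and -0.0042 over all genes tested. The groups did not overlap for 8 receptors (16.2% of all genes), namely the 7 called and Nr1i2. In bulk tissue fewer cells of a type and less RNA per cell cannot be told apart, which holds for all levels below.

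**Figure D1:**
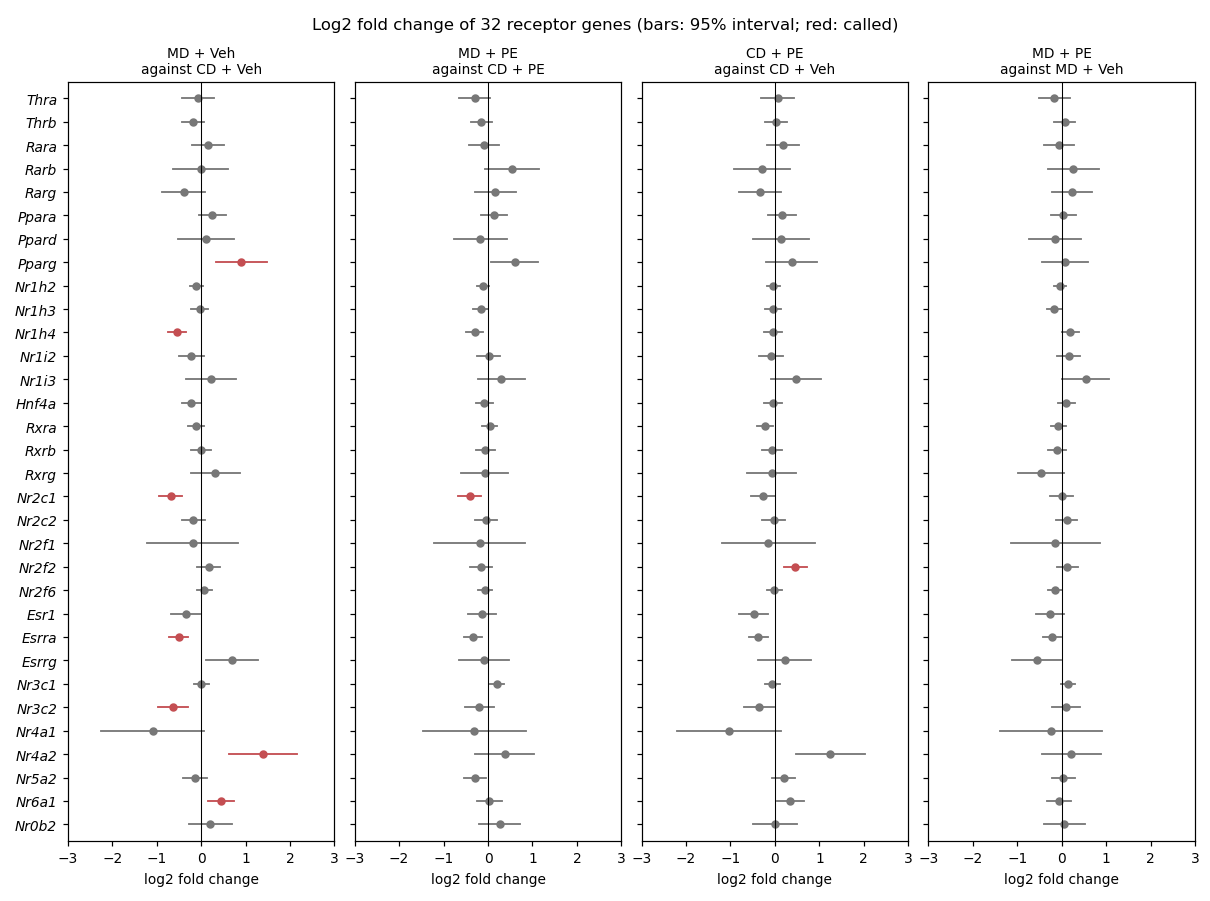
Log2 fold change (x axis) of each of the 32 tested receptor genes (y axis, by subfamily) in 4 comparisons, with 95% intervals as bars and called genes in red. In MD + Veh against CD + Veh 7 genes are red, in MD + PE against CD + PE only Nr2c1, in CD + PE against CD + Veh only Nr2f2, and in MD + PE against MD + Veh 0.

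Nr1h4, which in liver restrains bile acid synthesis when bound by bile acids, held 119, 91.4, 108 and 107 CPM in CD + Veh and 58.5, 76.6, 74.7, 78.6 and 79.3 CPM in MD + Veh. All 5 MD + Veh libraries lay below all 4 CD + Veh libraries, and the lowest was replicate 1, the library with high muscle markers. The gene fell by 0.53 on the log2 scale (0.691 times the control level, SE 0.098, adjusted p = 0.00108), and by 0.44 without that library. Among particle-exposed mice MD + PE held 74.03, 92.3, 94.2, 75.9 and 83.8 CPM and CD + PE 109.5, 102, 111, 97.01 and 96.7 CPM. These groups did not overlap either, and the difference missed the threshold (log2 fold change -0.30, SE 0.093, adjusted p = 0.0595). Nr0b2, its known target within the family, was not called. CD + Veh held 21.5, 32.2, 42.2 and 32.3 CPM and MD + Veh 50.96, 31.3, 31.03, 32.97 and 38.5 CPM, with overlapping groups (log2 fold change 0.21, SE 0.23, adjusted p = 0.601, 95% interval -0.28 to 0.69).

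Nr2c1, which encodes the orphan receptor TR2, held 15.4, 22.5, 14.2 and 20.6 CPM in CD + Veh and 9.76, 10.7, 11.8, 10.9 and 13.3 CPM in MD + Veh. Every MD + Veh value was below every CD + Veh value (0.622 times the control level, log2 fold change -0.69, SE 0.13, adjusted p = 0.00120). With particles the values were 14.1, 13.5, 15.2, 17.9 and 14.7 CPM in CD + PE and 11.3, 11.8, 9.82, 11.3 and 12.2 CPM in MD + PE, again without overlap. Nr2c1 was the 1 receptor of 32 called in MD + PE against CD + PE (log2 fold change -0.42, SE 0.12, adjusted p = 0.0469), a comparison in which 4.61% of all genes were called. That call was kept in 4 of 19 fits that each left out 1 library, with adjusted p between 0.0322 and 0.124, and was lost in DESeq2 (adjusted p = 0.0541). Nr2c2, which encodes the related TR4, gave log2 fold changes of -0.17 and -0.042 for MD in vehicle and PE mice (adjusted p = 0.383 and 0.878). The other receptors in MD + PE against CD + PE gave log2 fold changes from -0.34 (Esrra) to 0.60 (Pparg, adjusted p = 0.166), and the groups did not overlap for Nr2c1, Esrra and Nr1h4 (3 of 32, against 6.18% of all genes).

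Esrra encodes the estrogen-related receptor ERRalpha, an orphan receptor that works with PGC-1 coactivators on mitochondrial genes. CD + Veh held 36.5, 34.8, 34.8 and 41.02 CPM and MD + Veh 32.3, 23.7, 23.05, 24.4 and 26.1 CPM, with replicate 1 of MD + Veh as the highest of its group and the groups apart (log2 fold change -0.50, SE 0.10, adjusted p = 0.00243). Without that replicate the value was -0.58 (adjusted p = 0.000466). In MD + PE against CD + PE the groups were also apart, and the difference passed the adjusted p but not the limit on size (log2 fold change -0.34, SE 0.10, adjusted p = 0.0418). The annotated exons of Esrra overlap those of Trmt112 on the opposite strand, and whether reads were assigned by strand is not certain from the sources used here. Overlaps on the opposite strand are also annotated for other receptors, among them Nr2f2, Nr3c2, Pparg, Ppara and Nr1h3. Esrrg, a second gene of the ERR group expressed at a low level, gave a log2 fold change of 0.69 for MD in vehicle mice (adjusted p = 0.111), and the estrogen receptor gene Esr1 gave -0.35 (adjusted p = 0.145).

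Of the steroid receptors, Nr3c2, which encodes the mineralocorticoid receptor, held 20.4, 19.8, 16.6 and 14.1 CPM in CD + Veh and 13.4, 11.1, 9.75, 12.8 and 10.2 CPM in MD + Veh. The lowest control library lay just above the highest MD + Veh library, and the gene fell by 0.63 on the log2 scale (SE 0.16, adjusted p = 0.0114). Nr3c1, which encodes the glucocorticoid receptor, held 75.2 to 93.8 CPM in CD + Veh and 78.5 to 90.1 CPM in MD + Veh (log2 fold change 0.0062, SE 0.078, adjusted p = 0.967, 95% interval -0.16 to 0.17).

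Pparg encodes the adipogenic fatty acid receptor, which is low in lean liver. It held 3.86, 7.95, 5.03 and 11.05 CPM in CD + Veh and 13.1, 14.1, 14.5, 11.5 and 11.97 CPM in MD + Veh. The control libraries were widely spread, yet all lay below MD + Veh (1.88 times the control level, log2 fold change 0.91, SE 0.27, adjusted p = 0.0316). The call was lost without CD + Veh replicate 1 (adjusted p = 0.105) or 3 (adjusted p = 0.0981) and without MD + Veh replicate 2 (adjusted p = 0.0604) or 3 (adjusted p = 0.0635). The summed level of 5 adipocyte markers was 0.805 to 3.65 CPM in CD + Veh and 95.3 to 245 CPM in MD + Veh, with Cfd and Cidec as the highest of the 5 in every MD + Veh library. The adipocyte-defining Adipoq was at 4.18, 0.557, 0.136, 0 and 0 CPM in MD + Veh and 0 to 0.430 CPM in CD + Veh, and Lep at 3.04, 0.124, 0.136, 0 and 0 CPM in MD + Veh and at 0 in all CD + Veh libraries. Both were highest in MD + Veh replicate 1, without which Pparg was still called (log2 fold change 0.92, adjusted p = 0.0459). Of the other receptors of this group, Ppara had a value of 0.25 on the log2 scale (SE 0.15, adjusted p = 0.264) and Ppard 0.11 (SE 0.30, adjusted p = 0.839).

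Nr4a2, an immediate-early orphan receptor gene, was at the lower edge of detection, with 2 to 11 counts per library in CD + Veh and 15 to 27 in MD + Veh. It held 0.560, 0.143, 0.537 and 0.741 CPM in CD + Veh and 0.951, 1.30, 1.09, 1.24 and 2.09 CPM in MD + Veh, with no overlap (2.63 times the control level, log2 fold change 1.40, SE 0.36, adjusted p = 0.0144). Nr4a1, from the same group, varied more within groups than between them. It held 4.29, 3.80, 19.7 and 2.96 CPM in CD + Veh and 8.87, 3.10, 1.64, 2.79 and 1.47 CPM in MD + Veh (log2 fold change -1.09, SE 0.55, adjusted p = 0.201). Nr4a3 stayed at 0 to 7 counts in all 19 libraries. Nr6a1, which encodes the germ cell nuclear factor, held 8.58, 7.81, 8.99 and 7.81 CPM in CD + Veh and 11.98, 12.6, 11.05, 9.67 and 11.1 CPM in MD + Veh. The groups were apart but the step was small (log2 fold change 0.44, SE 0.14, adjusted p = 0.0431), and the call was kept in 11 of 19 fits that left out 1 library, with adjusted p between 0.015 and 0.102.

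**Figure D2:**
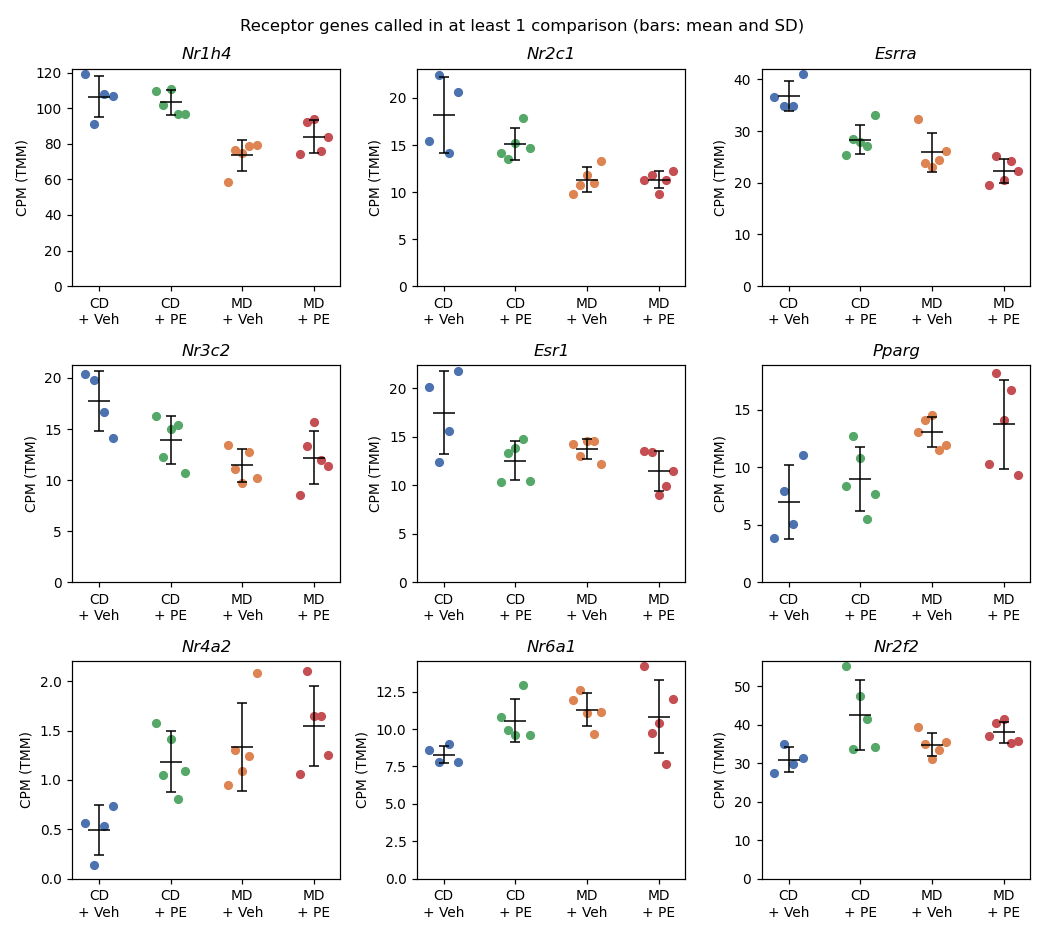
Level (y axis, CPM scaled by TMM) of the 9 receptor genes called in at least 1 comparison, by group (x axis), with 1 point per mouse and bars for the mean and SD. Nr1h4, Nr2c1, Esrra and Nr3c2 sit lower in MD + Veh than in CD + Veh, Pparg, Nr4a2 and Nr6a1 sit higher, and Nr2f2 is higher in CD + PE with overlap.

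The clock score did not overlap between CD + Veh and MD + Veh, and 0 of the 7 receptors called for diet were called when it entered the fit as a covariate, where calls over all genes fell from 10.4% to 2.79%. Their log2 fold changes were then 0.51 for Pparg, 1.75 for Nr4a2, 0.38 for Nr6a1, -0.50 for Nr1h4, -0.44 for Nr2c1, -0.39 for Esrra and -0.53 for Nr3c2, with adjusted p from 0.0791 to 0.572. With the division of library numbers as a covariate 6 of 7 were called, where calls over all genes were 11.6%, and Nr4a2 was not (log2 fold change 1.15, adjusted p = 0.059).

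The remaining receptors gave log2 fold changes for MD in vehicle mice that were not called. The receptors of thyroid hormone gave -0.067 (Thra, adjusted p = 0.837) and -0.19 (Thrb, adjusted p = 0.303). The retinoic acid receptors gave 0.15 for Rara, -0.012 for Rarb and -0.40 for Rarg, with adjusted p from 0.264 to 0.984. Thra and Rara differed more within MD + Veh than between the groups. Replicates 1 to 5 of MD + Veh held 29.3, 25.7, 25.2, 17.2 and 16.1 CPM of Rara and 14.7, 12.4, 12.1, 8.90 and 7.49 CPM of Thra, so both genes were lower in replicates 4 and 5, the libraries numbered 46 and 47. The division itself was fitted as a coefficient beside the groups, so it rests on MD + Veh replicates 1 to 3 against 4 and 5 alone. For it 0 of 32 receptors were called (0.103% of all genes), and 3 had an unadjusted edgeR p below 0.05 (Rara -0.68, adjusted p = 0.161, Thra -0.67, adjusted p = 0.190, and Nr2f6 -0.25, adjusted p = 0.292). The exons of Thra overlap those of Nr1d1, a clock gene, on the opposite strand.

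The RXR partners, the hepatocyte identity receptor and the sterol and drug receptors were not called. Rxra held 402 to 435 CPM in CD + Veh and 353 to 440.1 CPM in MD + Veh (log2 fold change -0.12, SE 0.089, adjusted p = 0.413), and Rxrb and Rxrg gave -0.0091 and 0.32 (adjusted p = 0.965 and 0.439). Hnf4a held 481 to 565 CPM in CD + Veh and 416 to 529 CPM in MD + Veh (log2 fold change -0.22, SE 0.10, adjusted p = 0.149). The LXR genes Nr1h2 and Nr1h3, which sense oxysterols made from dietary or synthesized cholesterol, gave -0.10 and -0.036 (SE 0.068 and 0.087, adjusted p = 0.330 and 0.828). Nr1i2 was lower in every MD + Veh library (40.01 to 49.8 CPM) than in CD + Veh (50.4 to 65.8 CPM) without passing the test (log2 fold change -0.22, SE 0.13, adjusted p = 0.282), and Nr1i3 overlapped (log2 fold change 0.22, SE 0.27, adjusted p = 0.626). Nr5a2, which encodes the bile acid and cholesterol regulator LRH-1, gave -0.14 (adjusted p = 0.492), and the COUP-TF genes gave -0.19 (Nr2f1), 0.17 (Nr2f2) and 0.066 (Nr2f6), with adjusted p from 0.372 to 0.834.

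The next comparison asks what particles changed on the control diet. In CD + PE against CD + Veh 1 of 32 receptors was called, against 2.92% of all genes tested, and the groups did not overlap for 4 receptors (2 higher and 2 lower), against 7.83% of all genes. The called gene was Nr2f2, which encodes COUP-TFII, a receptor of endothelial and mesenchymal as well as parenchymal cells. It held 27.5, 35.1, 29.8 and 31.3 CPM in CD + Veh and 55.1, 33.7, 47.4, 41.6 and 34.3 CPM in CD + PE. Of the 5 PE libraries 3 lay above all vehicle libraries and 2 lay among them, so the groups overlapped (1.37 times the vehicle level, log2 fold change 0.46, SE 0.12, adjusted p = 0.0439). The call was kept in 8 of 19 fits that left out 1 library, with adjusted p between 0.0176 and 0.124. It was lost in 5 of 11 other alternatives, with the largest adjusted p (0.377) under the division of library numbers as a covariate. The others were only these 2 groups fitted (0.115), the clock score (0.0793), no filter on low counts (0.0687) and a replicate block (0.0535). The summed level of 6 endothelial markers was 126 to 150 CPM in CD + Veh and 122 to 193 CPM in CD + PE, and their part in the Nr2f2 result was not tested.

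Esrra and Rxra were lower in every CD + PE library than in every CD + Veh library. Esrra held 25.4, 28.4, 27.9, 27.01 and 33.1 CPM in CD + PE, under the 34.8 to 41.02 CPM of CD + Veh, and passed the adjusted p but fell just short of the limit on size (log2 fold change -0.376, SE 0.10, adjusted p = 0.0475). Rxra held 350.4, 330.4, 349, 385 and 383 CPM in CD + PE against 431, 402, 435 and 418 CPM in CD + Veh (log2 fold change -0.23, SE 0.089, adjusted p = 0.169). With the clock score as a covariate the Rxra difference was -0.07 (adjusted p = 0.755), and that of Esrra was -0.29 (adjusted p = 0.267).

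Nr4a2 and Nr6a1 were higher in every CD + PE library than in every CD + Veh library. Nr4a2 held 1.58, 1.05, 1.41, 0.803 and 1.09 CPM in CD + PE, on 8 to 19 counts (log2 fold change 1.24, SE 0.37, adjusted p = 0.0688), DESeq2 called it (log2 fold change 1.26, adjusted p = 0.0444), and with the division of library numbers as a covariate it was at 0.67 (adjusted p = 0.688). Nr6a1 held 10.8, 9.91, 9.62, 12.95 and 9.58 CPM (log2 fold change 0.35, SE 0.14, adjusted p = 0.202). Esr1 held 20.1, 12.4, 15.6 and 21.8 CPM in CD + Veh and 10.3, 13.3, 13.9, 14.8 and 10.5 CPM in CD + PE, with overlap (log2 fold change -0.48, SE 0.16, adjusted p = 0.0988), and Nr3c2 gave -0.35 (adjusted p = 0.256).

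Ppara and Nr1i3, the receptors of fatty acids and of drugs, varied between mice by more than the groups differed. Ppara held 70.1, 63.9, 73.5 and 88.4 CPM in CD + Veh and 75.97, 59.03, 89.9, 89.8 and 97.8 CPM in CD + PE. CD + PE spanned the whole range of CD + Veh (1.11 times the vehicle level, log2 fold change 0.16, SE 0.15, adjusted p = 0.650, 95% interval -0.15 to 0.46). The lowest CD + PE value was in replicate 2, the library with high Kupffer cell markers. The same library had the highest clock score of its group, at 0.92 against -2.48 to -1.12. The part of either in its receptor levels was not tested. Without that library the log2 fold change was 0.26. Nr1i3 held 119, 141, 102 and 194 CPM in CD + Veh and 194, 96.7, 289, 162 and 222 CPM in CD + PE. Here too the lowest value was that of replicate 2 (1.38 times the vehicle level, log2 fold change 0.47, SE 0.27, adjusted p = 0.401, 95% interval -0.10 to 1.04), and without it the log2 fold change was 0.64 (adjusted p = 0.160). Nr1i2, which shares many targets with Nr1i3, gave -0.085 (SE 0.13, adjusted p = 0.813). The exons of Nr1i3 overlap those of Tomm40l on the opposite strand.

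**Figure D3:**
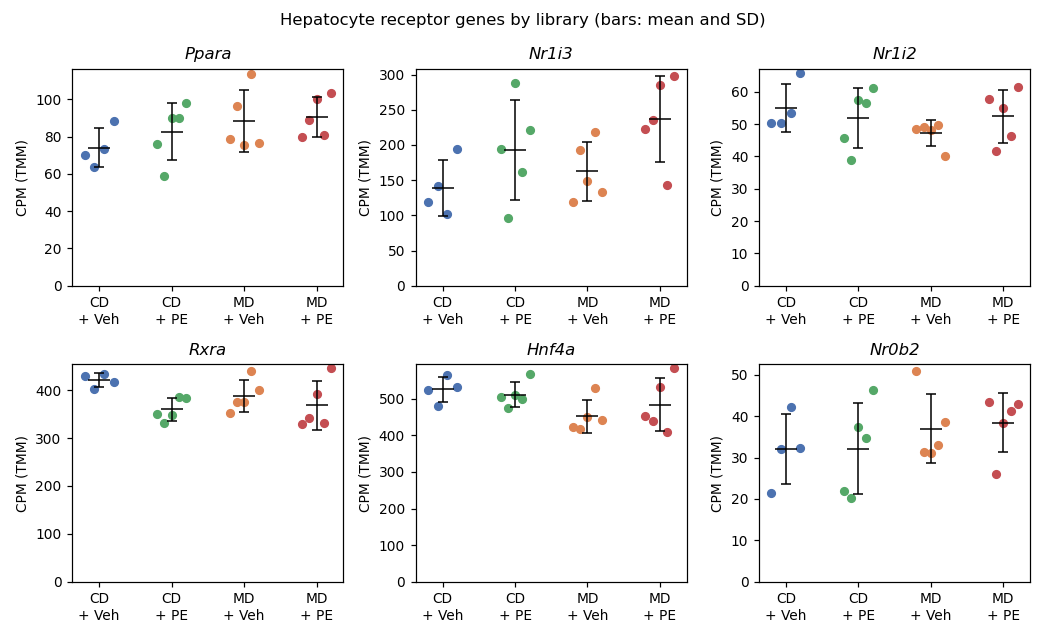
Level (y axis, CPM scaled by TMM) of 6 hepatocyte receptor genes by group (x axis), with 1 point per mouse and bars for the mean and SD. The 5 CD + PE values of Ppara run from 59.0 to 97.8 and span those of CD + Veh, and 4 of 5 MD + PE values of Nr1i3 lie between 222 and 298.

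The other receptors on the control diet were not called. Ppard stood at 6.48, 16.2, 6.44, 7.43 and 7.21 CPM in CD + PE, where the single high value belongs to replicate 2, and gave 0.13 (adjusted p = 0.882). Without that library Ppard gave -0.22 (adjusted p = 0.728). Pparg gave 0.38 (adjusted p = 0.527). Hnf4a, Nr1h2, Nr1h3, Nr1h4, Nr2f6 and Nr3c1 had narrow intervals near 0, from -0.25 to 0.17 for Hnf4a and -0.18 to 0.11 for Nr1h2 to -0.25 to 0.16 for Nr1h4. Thra, Thrb, Rara, Rarb, Rarg, Rxrb, Rxrg, Nr2c1, Nr2c2, Nr2f1, Esrrg, Nr4a1, Nr5a2 and Nr0b2 had log2 fold changes from -1.02 (Nr4a1) to 0.22 (Esrrg), all with adjusted p of at least 0.280.

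On MD, particles called 0 of 32 receptors (edgeR, MD + PE against MD + Veh), against 1.08% of all genes tested, and the groups overlapped for all 32, against 3.57% of all genes whose groups did not. DESeq2 also called 0, against 1.16% of all genes. With an unadjusted edgeR p below 0.05 there were 3 (15.7% of all genes), Nr1i3, Esrrg and Esrra. Nr1i3 held 119, 193, 149, 219 and 134 CPM in MD + Veh and 222, 235, 286, 143 and 298 CPM in MD + PE. Of the 5 MD + PE values 4 exceeded all of MD + Veh, while replicate 4, the library with high lipid-associated macrophage markers, lay within it (1.46 times the MD + Veh level, log2 fold change 0.54, SE 0.25, adjusted p = 0.307, 95% interval 0.011 to 1.07). Without replicate 4 the value was 0.69 (adjusted p = 0.202). Esrrg held 3.80, 4.15, 2.32, 4.26 and 4.40 CPM in MD + Veh and 2.52, 2.61, 2.78, 1.44 and 3.502 CPM in MD + PE (log2 fold change -0.56, SE 0.26, adjusted p = 0.310), and Esrra 19.6, 25.1, 20.5, 24.2 and 22.4 CPM in MD + PE (log2 fold change -0.21, SE 0.10, adjusted p = 0.300). Ppara held 78.7, 96.5, 75.6, 114 and 76.7 CPM in MD + Veh and 79.7, 89.01, 100.1, 80.8 and 103 CPM in MD + PE (log2 fold change 0.037, SE 0.14, adjusted p = 0.933, 95% interval -0.25 to 0.32). Over the 32 receptors the log2 fold changes ran from -0.56 (Esrrg) to 0.54 (Nr1i3), with a median of 0.019 against -0.012 over all genes.

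The interaction of PE and diet, which tests whether the PE effect differs between the diets, gave 0 of 32 receptors by edgeR and 0 by DESeq2. Over all genes edgeR called 0.00735%, all of them lower, and DESeq2 0.302%. Of the 2 with an unadjusted edgeR p below 0.05 (8.77% of all genes), Nr4a2 gave -1.03 (SE 0.48, adjusted p = 0.561) and Nr6a1 -0.41 (SE 0.20, adjusted p = 0.566). For Ppara the interaction was -0.12 (95% interval -0.54 to 0.30) and for Nr1i3 0.073 (95% interval -0.70 to 0.85), which cover differences in either direction.

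MD and PE together against neither (MD + PE against CD + Veh) called 6 of 32 receptors, against 14.6% of all genes tested, with 2 higher (6.02%) and 4 lower (8.55%). Groups did not overlap for 4 of 32 (18.8% of all genes), Esrra, Nr2c1, Nr4a2 and Nr2f2. This comparison shares its controls with those above and its values are given side by side with them. Esrra fell by 0.72 on the log2 scale (0.608 times the control level, SE 0.10, adjusted p = 6.13e-05), where MD alone gave -0.50 and PE alone -0.38. It was the 1 receptor called here in all 19 fits that left out a library and in all 11 other alternatives. Nr2c1 gave -0.69 (adjusted p = 0.000775) and Nr3c2 -0.54 (adjusted p = 0.0209). Pparg rose with overlapping groups (1.98 times the control level, adjusted p = 0.0149). Nr4a2 rose without overlap (3.06 times the control level, adjusted p = 0.00370). Esr1, which was called in no other comparison, held 13.5, 13.5, 8.95, 9.89 and 11.5 CPM in MD + PE (log2 fold change -0.61, SE 0.16, adjusted p = 0.00970), and lost its call without CD + Veh replicate 4 (adjusted p = 0.0641). With the division of library numbers as a covariate 3 receptors were called (6.84% of all genes), Nr2c1, Esrra and Rara. Nr1i3 stood at 1.70 times the control level and just missed the threshold (log2 fold change 0.77, SE 0.27, adjusted p = 0.0528, 95% interval 0.20 to 1.34), while DESeq2 called it (log2 fold change 0.78, adjusted p = 0.0201). The call of Nr1i3 was made in 5 of the 19 fits that left out 1 library and in 5 of the 11 other alternatives, DESeq2 among them. Over those 11 its log2 fold change ran from 0.57, with the division as a covariate (adjusted p = 0.494), to 1.34. Ppara stood at 1.22 times the control level (log2 fold change 0.29, SE 0.15, adjusted p = 0.173; DESeq2 adjusted p = 0.144), with the clock score as a covariate it was called (log2 fold change 0.68, adjusted p = 0.0202), and with the division as a covariate it was at 0.10 (adjusted p = 0.840). With the clock score 5 receptors were called (9.13% of all genes), of which Esrra and Nr4a2 were among the 6, so 4 of the 6 calls were lost.

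The known targets of the receptors were counted in the same fit. The lists were assembled from textbook knowledge, but with earlier results of these data known. Their counts beside the shares of all genes are therefore descriptive and give no independent support. Among 112 tested target genes of 8 receptor classes, 33 rose and 9 fell in MD + Veh against CD + Veh (against 4.74% and 5.63% of all genes), with a median log2 fold change of 0.27 against -0.0042 over all genes. PE on CD gave 10 that rose and 4 that fell (against 1.22% and 1.7% of all genes), and PE on MD 0 that rose and 5 that fell (0.147% and 0.934%). For diet among PE mice 18 rose and 9 fell (1.69% and 2.92%). The 20 coregulators tested, among them the coactivators Ncoa1, Med1 and Ppargc1a and the corepressor Ncor1, had 0 called by edgeR in each of these 4 comparisons, with 3, 1, 4 and 5 of 20 at an unadjusted p below 0.05, against 28.6%, 17.5%, 15.7% and 21.7% of all genes. DESeq2 was fitted to all genes, but its results for the target and coregulator lists were not read out.

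PPARalpha targets, enzymes and carriers of fatty acid oxidation, held 12 genes that rose and 0 that fell of 27 in MD + Veh against CD + Veh (4.74% and 5.63% of all genes), and Ppara itself was not called. Acaa1b, a peroxisomal thiolase, averaged 744 ± 159.7 CPM among CD + Veh mice (SD, n = 4) against 2199 ± 178 CPM among MD + Veh mice (SD, n = 5) (log2 fold change 1.56, SE 0.17, adjusted p = 6.44e-06). Cpt2, which imports fatty acids into mitochondria, and the carnitine carrier Slc25a20 gave 0.59 and 0.68 (adjusted p = 0.000531 and 0.000873). With PE on CD 6 of the 27 rose and 0 fell (1.22% and 1.7% of all genes). Cyp4a10, a fatty acid omega-hydroxylase, stood at 40.8 ± 31.7 CPM in CD + Veh and 223 ± 132 CPM in CD + PE (log2 fold change 2.45, SE 0.56, adjusted p = 0.0191), Slc25a20 gave 0.59 (adjusted p = 0.0108) and Cpt2 0.44 (adjusted p = 0.0181). With PE on MD 0 of 27 were called by edgeR (1.08% of all genes), with 6 at an unadjusted p below 0.05 (15.7%), and Cyp4a10 held 192 ± 95.2 and 364 ± 122 CPM.

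Targets of CAR and PXR, enzymes and transporters of foreign chemicals, held 10 of 23 that rose and 0 that fell on MD in vehicle mice (4.74% and 5.63% of all genes). Cyp3a11, the main drug-oxidizing P450 of mouse liver, stood at 648 ± 146 CPM in CD + Veh and 2062 ± 309.6 CPM in MD + Veh (log2 fold change 1.67, SE 0.19, adjusted p = 1.22e-05), and Gsta2, a glutathione transferase, rose by 2.13 (adjusted p = 2.66e-05). In CD + PE 3 of 23 rose (1.22% of all genes), Cyp3a25 (0.83, adjusted p = 0.00512), the retinal dehydrogenase Aldh1a1 (0.86, adjusted p = 0.0110) and Gsta2 (0.97, adjusted p = 0.0475). With PE on MD 0 of 23 were called by edgeR (1.08% of all genes), with 6 at an unadjusted p below 0.05 (15.7%). For diet among PE mice 6 of 23 rose (1.69% of all genes), with Cyp3a11 at 1.54 (adjusted p = 1.43e-05), while Nr1i3 and Nr1i2 gave 0.30 and 0.014.

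LXR targets went both ways. On MD the sterol exporters Abcg5 (81.8 ± 11.6 CPM in CD + Veh and 238 ± 26.3 CPM in MD + Veh, log2 fold change 1.54, SE 0.16, adjusted p = 2.88e-06) and Abcg8 (1.19, adjusted p = 0.000232) rose, while the fatty acid synthase gene Fasn fell (-1.37, adjusted p = 0.00224), and in all 3 of 12 rose and 3 fell (4.74% and 5.63% of all genes). With PE, 2 of the 12 LXR targets fell on CD (1.7% of all genes) and 2 on MD (0.934%), Fasn and Scd1 both times. Fasn gave -1.58 on CD and -1.47 on MD (adjusted p = 0.00359 and 0.00831), and the desaturase gene Scd1 -1.06 and -1.32 (adjusted p = 0.00526 and 0.00121). The transcription factor gene Srebf1 was not called (-0.51 on CD and -0.30 on MD, adjusted p = 0.218 and 0.535). These comparisons share no libraries, though in both of them PE and library order cannot be told apart. Among the 9 thyroid receptor targets the lipogenic genes Thrsp and Me1 did the same, with Thrsp at -2.05 and -1.57 and Me1 at -1.25 and -0.82 (adjusted p = 0.00107, 0.00816, 0.00176 and 0.0340), while Dio1, the deiodinase that thyroid hormone induces, rose on MD (1.05, adjusted p = 0.000648). The LXR and thyroid receptor genes themselves were called in none of these comparisons.

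FXR targets moved both ways on MD, beside the drop in Nr1h4. Slc10a1, the bile acid importer that FXR signalling lowers, stood at 611 ± 61.6 CPM in CD + Veh and 297 ± 52.6 CPM in MD + Veh and fell (log2 fold change -1.04, SE 0.15, adjusted p = 0.000167), while Abcb4, the phospholipid exporter that FXR raises, and the apolipoprotein gene Apoc2 rose (0.78 and 0.77, adjusted p = 0.000105 and 0.00390). In all 3 of 10 rose and 2 fell, and over all genes 4.74% rose and 5.63% fell, which are the shares to set beside each MD count here. Abcb4 was also the 1 FXR target called in CD + PE (0.43, adjusted p = 0.0350, against 1.22% of all genes that rose). HNF4 targets held 0 that rose and 2 of 14 that fell on MD, Apom (-1.04, adjusted p = 1.24e-06) and the clotting factor gene F7 (-0.46, adjusted p = 0.00213), and with PE on MD 1 of 14 fell (0.934% of all genes), Apoc3 (-0.41, adjusted p = 0.0239). Of 14 glucocorticoid receptor targets 1 rose on MD, Cdkn1a (2.13, adjusted p = 0.0320), and of 6 retinoic acid receptor targets 2 rose, Tgm2 (0.56, adjusted p = 0.00344) and Cyp26b1 (2.43, adjusted p = 0.0317), and both lists had 0 called by edgeR in CD + PE, with 2 and 3 genes at an unadjusted p below 0.05 (17.5% of all genes).

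**Figure D4:**
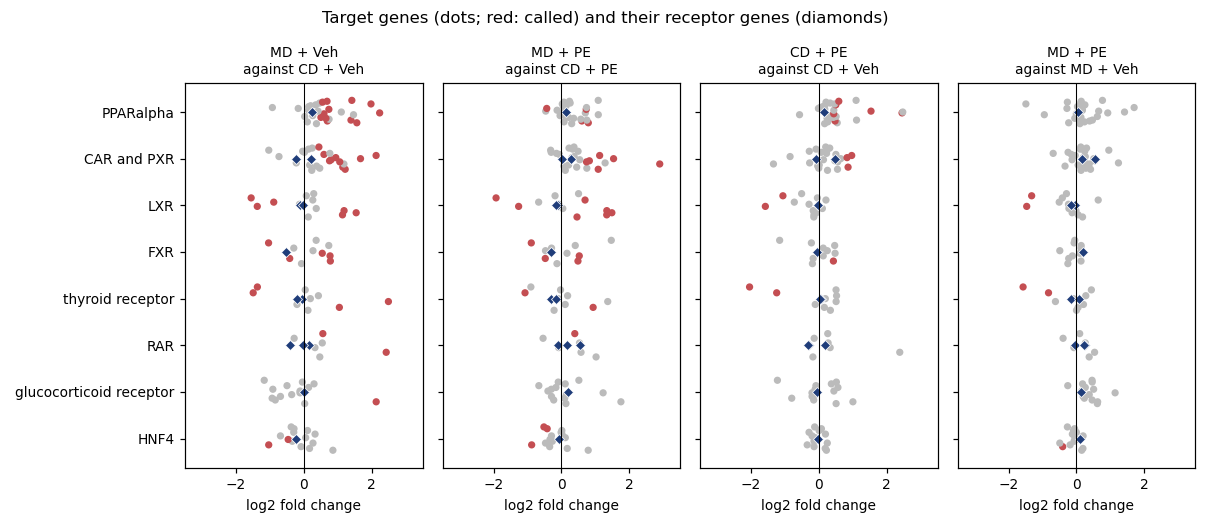
Log2 fold change (x axis) of known target genes, 1 dot per gene with called genes in red, and of the receptor genes themselves as blue diamonds, for 8 receptor classes (y axis) in 4 comparisons. The diamonds run from -0.53 (Nr1h4, MD + Veh against CD + Veh) to 0.54, while called targets reach for example -2.05 (Thrsp) and 2.45 (Cyp4a10) in CD + PE against CD + Veh.

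Vdr and Hnf4g were at the floor in all libraries but 1. Vdr held 82 counts (6.91 CPM) in MD + PE replicate 2 and 0 to 5 counts in each of the other 18 libraries. Hnf4g, the HNF4 paralog known from gut epithelium, held 49 counts (4.13 CPM) in the same library and 1 to 10 counts in the others. That library also held 58.7 CPM of the duct keratin gene Krt19, where the other 18 libraries held 0.351 to 8.17 CPM. Its level of Epcam was 29.2 CPM and of Cftr 33.8 CPM, and it held 2.02 CPM of the intestinal transcription factor gene Cdx2, which had 0 counts in all other libraries. The 5 bile duct markers summed to 149 CPM there and to 8.30 to 21.4 CPM elsewhere. Vdr and Hnf4g thus stood apart together with epithelial markers in 1 mouse, and their part in these values was not tested. Without this library MD + PE against MD + Veh called 0 receptors, where calls over all genes fell from 1.08% to 0.626%. MD + PE against CD + Veh called 6, where calls over all genes fell from 14.6% to 13.1%.

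**Figure D5:**
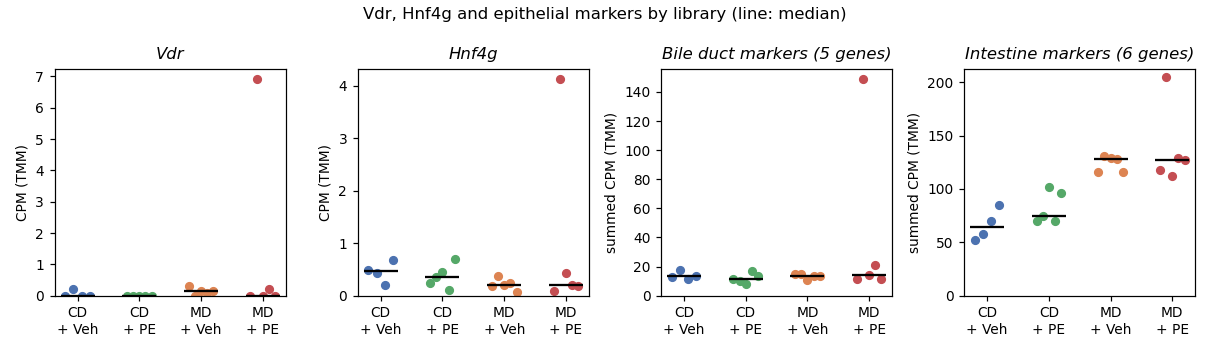
Level (y axis, CPM scaled by TMM) of Vdr and Hnf4g and the summed level of 5 bile duct and 6 intestine markers, by group (x axis), with 1 point per mouse and a line at the median. In the first 3 panels 1 point of MD + PE, replicate 2, stands far above all other points, at 6.91, 4.13 and 149 CPM.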

How the data were processed

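The authors trimmed paired-end poly(A) RNA-seq reads with fastp 0.23.4 and quantified them with Salmon 1.10.3. The deposited gene table holds estimated counts as whole numbers, and the labels call the libraries standard where the methods describe strand. The members and lists were chosen with earlier results of these data known. Counts were fitted with edgeR 4.0.16 in R 4.3.3 (TMM, filterByExpr, 1 coefficient per group, quasi-likelihood test, 19 libraries), with Benjamini-Hochberg adjustment over 13597 genes. A gene was called at an adjusted p under 0.05 with a log2 fold change of 0.38 or more in either direction. The SE is the log2 fold change over the square root of F, and intervals cover 95%. The 35 receptors were all named, with up to 3 called genes of smallest p per target list. Gene positions and promoters are from GRCm39 with GENCODE vM39. The fit was also run on simulated data. It recovered 48% to 62% of changes of 0.7 on the log2 scale between groups, and 30% for the interaction. For changes of 1 it recovered 69% to 70% between groups, and 56% for the interaction.

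Alternatives were DESeq2 1.42.0, RLE size factors, no filter, a stricter filter, no fold limit, robust dispersion, only the groups compared, a replicate block, the library division, the clock score, thinned counts, and each library left out. Nothing in the labels ties equal replicate numbers, so samples were treated as unpaired. No pair of libraries in a group was a copy (36 pairs). The edgeR p-values set each difference against the spread between mice within groups, with a single estimate per gene shared by all groups in the fit.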

Additional observations from a re-analysis of the deposited data

Results flagged for a closer look

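In 13 of 131 sets of a receptor gene and a group, 1 library lay far from the others of its group by Dixon's test at the 95% level, where chance alone marks about 1 in 20 sets. Library MD + PE replicate 2 held 6.91 CPM of Vdr (the next library 0.206) and 4.13 CPM of Hnf4g (the next 0.435). MD + PE replicate 1 held 27.1 CPM of Rara and 94.99 CPM of Nr2f6 as the highest of its group. MD + PE replicate 3 was lowest for Rxrg at 1.91 CPM, and MD + PE replicate 4 was lowest for Nr5a2 at 44.3 CPM. CD + PE replicate 2 held 16.2 CPM of Ppard, against 7.43 CPM in the next library. MD + Veh replicate 1 was lowest for Nr1h4 at 58.5 CPM and highest for Nr4a1 at 8.87 CPM. MD + Veh replicate 5 was lowest for Nr1i2 at 40.01 CPM, and MD + Veh replicate 3 was lowest for Esrrg at 2.32 CPM. CD + Veh replicate 4 was highest for Nr2c2 at 31.6 CPM, and CD + Veh replicate 3 for Nr4a1 at 19.7 CPM.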

How the results depend on the processing

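For PE on MD and for the interaction the count of receptors called was 0 in every alternative run, and the interaction had no alternative with only the groups compared. Over all genes the share called ran from 0.243% to 1.79% for PE on MD and from 0% to 0.397% for the interaction. In CD + PE against CD + Veh the count of 1 became 2 with DESeq2 (Nr2f2 and Nr4a2) and with no fold limit (Nr2f2 and Esrra), and 0 with no filter on low counts, with only the groups compared, with the replicate block, and with the library division or the clock score as a covariate. Over all genes the share called there was 2.92%. It became 2.16% with DESeq2 and 3.79% with no fold limit, and 1.15%, 2.26%, 3.08%, 0.272% and 1.87% in the 5 alternatives with a count of 0. The receptor count ran from 0 to 2 when 1 library was left out, with 0 without any of replicates 1, 3 and 4 of CD + Veh, 1, 3 and 4 of CD + PE, 2 and 4 of MD + Veh, or 1, 2 and 5 of MD + PE. These leave-out fits called 1.55% to 3.14% of all genes. In MD + Veh against CD + Veh the count of 7 became 0 with the clock score as a covariate (2.79% of all genes). It was 5 to 7 with 1 library left out (7.37% to 12.1% of all genes). In MD + PE against CD + PE the count of 1 became 0 with RLE normalization, DESeq2, no filter, the clock score or thinned counts. Over all genes these fits called 4.42%, 3.04%, 2.04%, 4.26% and 4.6%. The receptor count became 2 with no fold limit (7.09% of all genes), and 0 to 2 with 1 library left out (3.7% to 7.25% of all genes). In MD + PE against CD + Veh the count of 6 became 3 with the library division as a covariate (6.84% of all genes). It was 4 to 8 with 1 library left out (4 without CD + Veh replicate 1), where 11.7% to 16% of all genes were called. With the clock score it was 5 (9.13% of all genes), of which 2 were among the 6. The cause of these changes was not tested.

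With the library division as a covariate, which is estimated within MD + Veh alone, the log2 fold change of Ppara reversed. It was -0.031 in CD + PE against CD + Veh and -0.073 in MD + PE against MD + Veh. In the latter it was -0.0015 with the clock score as a covariate, and with 1 library left out it ran from -0.01 to 0.14, with -0.0143, -0.0060, -0.00093 and -0.014 when the omitted library was replicate 3 or 5 of MD + Veh, or replicate 3 or 5 of MD + PE. Under the replicate block Nr2f2 in CD + PE (0.47, adjusted p = 0.0535), Nr6a1 in MD + Veh (0.44, adjusted p = 0.0589) and Nr3c2 in MD + PE against CD + Veh (-0.49, adjusted p = 0.0534) lost their calls. Deviations of libraries with the same number had a median correlation of 0.0293 over 27 pairs, 6 of them above 0.1, so the numbers were not taken to pair the mice. Genes under about 10 counts per library, such as Nr4a2 in CD + Veh, are limited by depth.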
